A study of Mus musculus with 7 samples.

Results

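HRO.5 and HRO.6 are the mouse bone marrow samples of pool WBM_1 that the series text describes as TET2-mutated and chronic. Their cells were taken from a single droplet library in which 5 marrow samples were pooled, each marked with its own hashtag antibody, and they were compared with the hashtag samples WTY.3, WTO.3 and HRY.4 from that pool. Cells were chosen as hashtag singlets with at least 300 genes detected and under 10% mitochondrial UMIs. The chronic samples then held 4332 of the 10715 kept cells of the pool, and the whole series holds 78720 cell barcodes in 7 libraries. HRO.5 gave 1202 cells and HRO.6 gave 3130, against 3022 for WTY.3, 1102 for WTO.3 and 2259 for HRY.4. All marrow came from spine, hips, femur and tibia after red cell lysis. The labels give no strain, age, sex, transgene, allele or treatment, state no condition for the compared samples and do not spell out their names. Nothing says how many animals a hashtag stands for, so p-values measure only the spread between these samples. WTY.3, WTO.3 and HRY.4 carry different group names (WTY, WTO and HRY) but were treated as a single compared group throughout. The spread among them can thus hold differences between those groups, and it is not replicate variation within a single condition.

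TET2 is a dioxygenase that oxidises 5-methylcytosine and so takes part in removing methyl groups from DNA. Its loss in blood stem cells is known for clonal expansion, for a skew towards monocytes and for heightened inflammatory gene expression in myeloid cells. Bone marrow holds the whole series from stem cells to neutrophils, monocytes, red cell precursors and B cells, along with returning mature lymphocytes and plasma cells. The comparison asks in which of these cells the chronic samples differ from the other samples of their pool.

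The groups were first checked against their hashtags and their sex-linked genes. Of 16012 barcodes, 10976 were called singlets, 3074 doublets and 1958 negative. HRO.5 was the sample with the weakest hashtag: its cells had a median of 76 counts of their own tag, against 233 in HRO.6 and 367.5 to 525 in the compared samples. When hashtag counts were normalised within each cell instead of over cells, 44.3% of its kept cells got the same call, against 77.2% to 97.5% in the other 4 samples. Of its 1202 cells, 368 became WTY.3 in that form. These had a median of 96 WTY.3 counts, close to the 97 of HRO.6 cells and below the 525 of WTY.3 cells. Their median of HRO.5 counts was 51, against 3 in HRO.6 cells. The HRO.5 call was itself made from these hashtag counts, so they are no separate check of it. Xist, the RNA of the inactive X, stood at 1089 CPM (UMIs scaled to the sample's summed UMIs) in HRO.5 and 776 in WTY.3, and at 41.4 in HRO.6, 62.1 in WTO.3 and 63.3 in HRY.4. The Y-linked Ddx3y had the reverse order, with 1.03 and 1.35 CPM in HRO.5 and WTY.3 and 41.9 to 45.7 in the others, so neither group was uniform in its sex-linked genes. Summed UMIs ranged from 2915421 in WTO.3 to 13537522 in HRO.6, median UMIs per cell from 1949.5 to 2829.5, and 0 to 5 barcodes were shared with any other library.

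In the sentences that follow, 5 values in a row are always in the order HRO.5, HRO.6, then WTY.3, WTO.3 and HRY.4. Cell classes are clusters named from fixed marker genes, with 5 to 10 markers of the name in each named cluster, and 1 cluster of 166 cells stayed unnamed. Gene levels are CPM over the UMIs summed for that class and sample, and they are not per length, so levels are compared between samples and not between genes. Counts were tested per class with edgeR's quasi-likelihood test, and a gene is said to rise or fall only at a Benjamini-Hochberg adjusted p under 0.05.

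Plasma cells, which secrete antibody, made up a larger share of the marrow in both chronic samples than in any compared sample. Their shares were 2.33%, 1.98%, 0.397%, 0.907% and 0.266% of kept cells, resting on 28, 62, 12, 10 and 6 cells. The exact 95% interval was 1.55% to 3.35% in HRO.5 and 1.52% to 2.53% in HRO.6, and that of WTO.3, the highest compared sample, was 0.436% to 1.66%. These intervals cover counting error only. The group means were 2.16% ± 0.247 (SD, n = 2) and 0.523% ± 0.339 (SD, n = 3), a difference of 1.63 percentage points. The exact two-sided permutation test gave p = 0.1, which is the smallest value that 10 splits of 5 samples allow, so no class share could pass a threshold of 0.05, and the Benjamini-Hochberg value over the 15 classes was 0.6 or higher for all of them.

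A further class was also higher in both chronic samples, a mixture of macrophage-like cells led by C1qa, a chain of complement C1q, and Cd209a, with fewer monocyte-like cells led by Ace. It took 6.66%, 4.25%, 2.71%, 3.72% and 2.08% of the cells, with means of 5.45% ± 1.7 (SD, n = 2) and 2.84% ± 0.827 (SD, n = 3) and an exact permutation p of 0.1. At a finer clustering it split into a C1qa and Cd209a cluster with 4.58%, 3.07%, 1.82%, 2.81% and 1.42% of the cells and an Ace cluster with 2.08%, 1.34%, 0.86%, 0.998% and 0.708%. Both finer clusters were higher in each chronic sample than in any compared one. The difference of 2.61 percentage points did not hold for the macrophage class when each cell was gated on its own markers. The shares were then 1.75%, 0.927%, 0.993%, 1.09% and 0.62%, with HRO.6 below WTY.3 and WTO.3 and a difference of 0.436. That gate has a separate dendritic cell class with Cd209a among its markers, so its macrophage class is not the same set of cells. Under the within-cell hashtag form the clustered class differed by 1.43.

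Basophils, marked by Prss34 and Mcpt8, went the other way, with 0.666%, 0.671%, 1.26%, 0.817% and 1.64% of the cells. They rested on 8, 21, 38, 9 and 37 cells, and the difference of -0.569 percentage points had an exact permutation p of 0.2. The unnamed cluster, led by Pf4, Angpt1, Vwf and Itga2b, genes of platelet precursors and of stem cells, took 1.83%, 2.17%, 0.893%, 1.09% and 1.64%, also with p = 0.2 by the exact permutation test. In these 2 classes, too, the groups did not overlap.

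The other classes overlapped between the groups, and for several of them the chronic samples lay far apart from each other. T and NK cells took 11.9% of HRO.5 but 5.02% of HRO.6, against 3.11%, 5.35% and 4.38%. Monocytes took 23.6% of HRO.6 but 15.1% of HRO.5, against 17.1%, 13.8% and 18% (exact permutation p = 0.5). With each cell gated alone they took 18.6%, 25.3%, 17.6%, 15.7% and 18.6%, a difference of 4.68 percentage points. The groups then just failed to overlap, with HRO.5 and HRY.4 nearly equal. Pro-B and pre-B cells took 9.48% and 2.72%, against 7.51%, 17.2% and 11.1%, and mature B cells 13.1% and 8.27%, against 4.04%, 16.0% and 11.9%. The groups also overlapped for the neutrophil classes, erythroid cells and granulocyte-monocyte progenitors, with exact permutation p between 0.5 and 1.0.

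**Figure D1:**
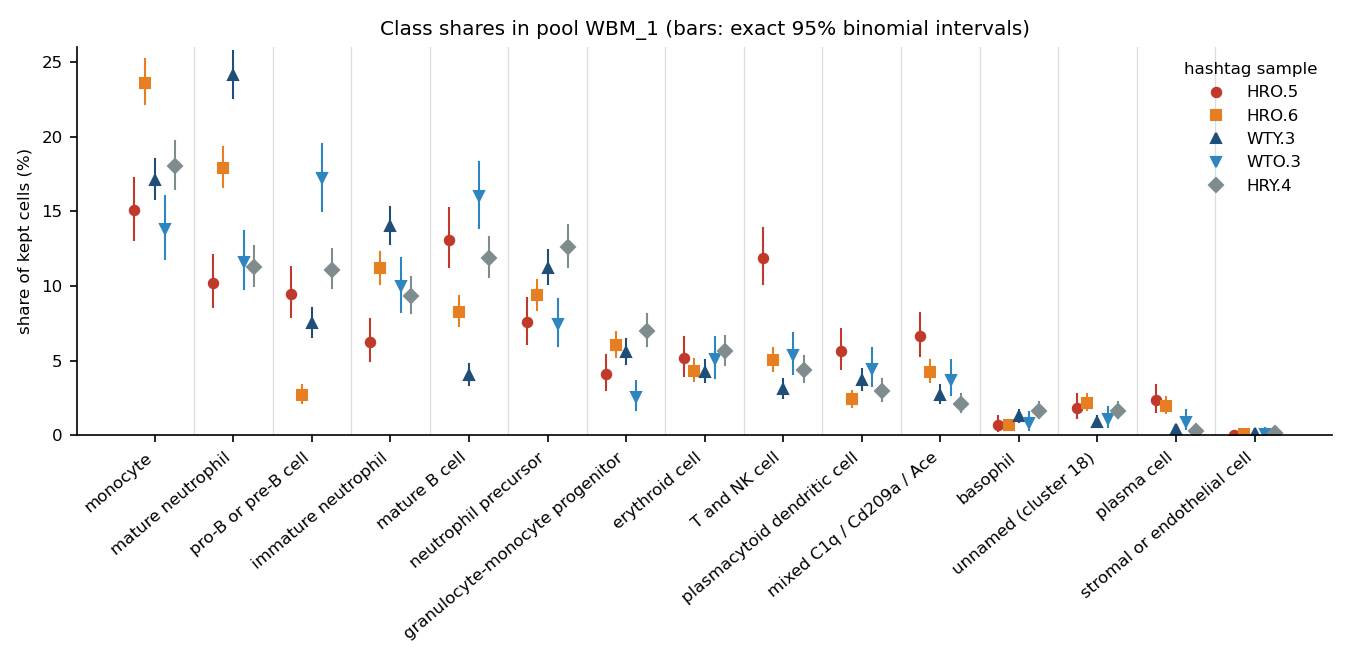
Share of kept cells (percent, y axis) of each marrow cell class in each of the 5 hashtag samples of the pool, with exact 95% binomial intervals as bars and the chronic samples HRO.5 and HRO.6 set off by colour. Plasma cells sit at 2.33% and 1.98% in the chronic samples and at 0.266% to 0.907% in the compared samples, while monocytes and mature B cells overlap.

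Monocytes were 1998 cells in 3 clusters, one of 1235 cells led by Vcan, one of 671 led by Itga1 and Klf4, and one of 92 led by the interferon-response genes Ifit3, Cxcl10 and Ifit1. They showed a rise of an acute-phase protein and of 2 interferon-inducible transcripts in the chronic samples, and a fall of several Trim genes of chromosome 7. Of 8093 genes tested, 12 passed (0.148%), 8 higher and 4 lower. Without HRO.6 the count was 5, and without any other sample it was 10 to 13.

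Saa3 encodes serum amyloid A3, an acute-phase protein made outside the liver by macrophages among other cells. The gene lies on the minus strand of chromosome 7 at 46711998 to 46715700 (mm10). Its level was 177, 129, 41.4, 3.77 and 15.5 CPM, so both chronic samples were at least 3 times as high as the highest compared sample, WTY.3. The log2 fold change was 2.51 ± 0.283 (SE) with an adjusted p of 7.13e-05. Leaving out 1 sample at a time moved it between 2.23 and 3.58 and kept the call, whereas DESeq2 gave an adjusted p of 1.0. In the other classes Saa3 stayed at or below 12.5 CPM, except for 86.6 CPM in the C1qa and Ace mixture of HRO.5. Saa3 also leads a finer cluster of monocytes, with Apoc1, Apoe and Gm5150, that held 23.2%, 30.1%, 21.8%, 18.4% and 14.3% of the monocytes. Since those genes shaped that cluster, its share is a description and not a second result.

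Ifitm1 encodes an interferon-induced membrane protein and lies on the plus strand of chromosome 7 at 140967221 to 140969825. It stood at 65.3, 66.0, 20.7, 13.2 and 22.6 CPM, with the chronic samples nearly equal and both above all 3 compared ones. The log2 fold change was 1.74 ± 0.203 (SE) with an adjusted p of 7.13e-05, and the call was kept under all 11 alternatives. In mature neutrophils, where Ifitm1 was higher, it stood at 310, 784, 289, 137 and 126 CPM and did not pass (adjusted p = 0.23). The promoters of these 2 genes follow, from RefSeq (GRCm38.p6), each 250 bases before to 50 after the start and on the gene's own strand, because they head the monocyte list and differ in the motifs searched. Capitals mark matches to a C/EBP-type motif (TTNNGNAA) or to an IRF-type core (AANNGAAA), bound by interferon regulatory factors, searched on both strands.
Saa3, chr7:46715627-46715926, minus strand: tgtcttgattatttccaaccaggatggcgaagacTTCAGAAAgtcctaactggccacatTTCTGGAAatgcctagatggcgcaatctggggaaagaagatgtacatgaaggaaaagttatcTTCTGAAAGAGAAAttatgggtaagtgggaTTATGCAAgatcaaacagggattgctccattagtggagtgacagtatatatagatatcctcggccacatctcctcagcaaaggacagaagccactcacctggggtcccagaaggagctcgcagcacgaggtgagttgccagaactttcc
Ifitm1, chr7:140967826-140968125, plus strand: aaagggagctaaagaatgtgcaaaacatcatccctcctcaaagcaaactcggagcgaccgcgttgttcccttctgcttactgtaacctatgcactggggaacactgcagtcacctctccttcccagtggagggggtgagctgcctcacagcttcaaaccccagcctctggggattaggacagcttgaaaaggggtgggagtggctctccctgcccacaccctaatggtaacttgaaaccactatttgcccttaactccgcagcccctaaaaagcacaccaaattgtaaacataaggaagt
The Saa3 window holds 4 C/EBP-type matches, which begin at positions -216, -191, -129 and -99 from the start, and 1 IRF-type match at -123 that overlaps the match at -129. The Ifitm1 window holds neither, and neither window holds the GAS-type letters TTCNNNGAA. The Ifitm1 window lies inside the GENCODE span given above, because its RefSeq start is downstream of the GENCODE one. Sequence before the GENCODE start of Ifitm1 was not searched. Among all 32851 promoter windows in the same table, 40.7% hold the C/EBP-type letters, 23.9% the IRF-type letters and 8.3% the GAS-type letters. A match is a description of letters and not evidence of binding.

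AW112010, a transcript annotated as noncoding and known as inducible by interferon, stood at 199, 153, 61.7, 86.7 and 75.4 CPM, with a log2 fold change of 1.27 ± 0.158 (SE) and an adjusted p of 8.03e-05. Its call, like that of Ifitm1, was kept under all 11 alternatives. Gdpd3, a lysophospholipase D, stood at 249, 228, 147, 166 and 86.7 CPM and Tmem176b, a membrane protein of myeloid cells, at 127, 115, 80.9, 77.3 and 58.5 CPM. Their adjusted p were 0.0416 and 0.049, and each lost its call in 8 of 11 alternatives, as did Gm5150 at 46.4, 84.9, 31.8, 28.3 and 44.4 CPM (adjusted p = 0.0427). C130026I21Rik, a member of a multicopy family on chromosome 1 whose reads can be shared between copies, passed with overlapping groups, at 15.5, 62.4, 7.23, 7.54 and 16.2 CPM.

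The calls that were lower in monocytes were Trim12a, Trim30d, Trim5 and the noncoding Gm42031. Trim12a stood at 1.72, 1.22, 17.3, 24.5 and 28.2 CPM, with a log2 fold change of -4.01 ± 0.498 (SE) and an adjusted p of 8.03e-05. Trim30d stood at 3.44, 1.52, 20.2, 22.6 and 31.0 CPM. Trim5 had no count in either chronic sample, against 5.30, 7.54 and 20.4 CPM, so it was at least 14.1-fold lower against a floor of 3 counts over the chronic group. Gm42031 overlapped between the groups, at 0, 2.13, 37.1, 1.89 and 12 CPM. Each of the 4 lost its call without HRO.6. The Trim genes are set out further on with their neighbours on chromosome 7.

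**Figure D2:**
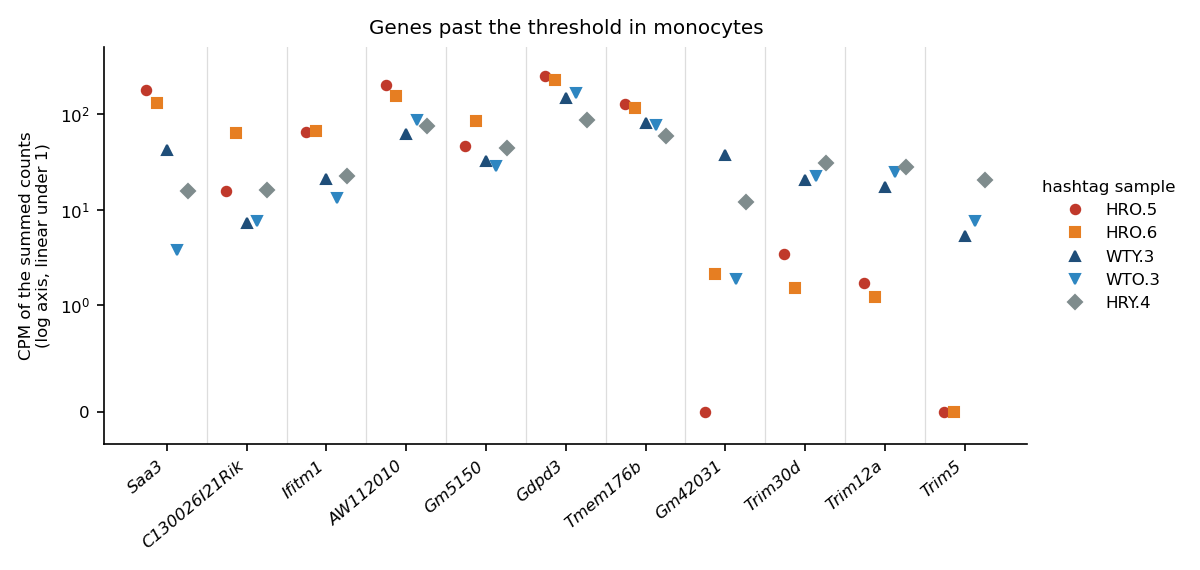
Levels (CPM of the summed counts, on a log axis that is linear under 1) of genes called in monocytes, with 1 point for each of the 5 samples. Saa3 sits at 177 and 129 CPM in HRO.5 and HRO.6 and at 3.77 to 41.4 CPM in the rest, and Trim12a at 1.72 and 1.22 against 17.3 to 28.2 CPM.

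Of the inflammation lists in monocytes, Saa3 was the sole member called. Of the 32 genes of the type I interferon response, 30 were tested in monocytes and none passed; 1 was higher and 4 were lower without overlap, against 7.25% and 10.5% of all genes tested. Their median log2 fold change was -0.06, against -0.00 over all genes. Ifi44, one of them, stood at 68.8, 53.3, 0.964, 49.0 and 24.0 CPM (adjusted p = 0.32), and it is WTY.3 that stands apart there. Of the acute-phase and iron-withholding list 7 of 15 were tested and 1, Saa3, passed, with 6 folds above 0 and a median of 0.26. Of 22 cytokines and chemokines 8 were tested and none passed (median 0.04), among them Ccl9, a monocyte chemokine, at 602, 558, 394, 432 and 501 CPM (adjusted p = 0.67). The 16 MHC class I genes all stayed short of the threshold while 15 had folds above 0 (median 0.16), and so did the 17 NF-kB genes tested, with a median of 0.06. S phase and G2 and M phase genes had medians of -0.19 and -0.10 with no call. Transcripts of neutrophils that reach other droplets as free RNA had a median of -0.19, with Camp, a neutrophil granule peptide, at 1724, 3108, 3125, 4646 and 3607 CPM; their part in the results was not tested.

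Tet2 itself was measured in every class, but the part of the gene that the mutation touches is not given, so its level checks no label. In monocytes it stood at 63.6, 44.1, 44.8, 37.7 and 43.7 CPM, with a log2 fold change of 0.22 ± 0.19 (SE) and an adjusted p of 1.0. In granulocyte-monocyte progenitors it stood at 23.4, 27.4, 31.0, 27.2 and 27.0 CPM, and the groups overlapped in both classes. Of the 22 genes that add, read or remove DNA methylation, 17 were tested in monocytes and 18 in progenitors, and none passed in either. In progenitors 14 of the 18 had folds below 0, 5 were lower and 0 higher without overlap, against 7.26% and 9.24% of all genes tested, with a median of -0.19. Dnmt1, the methyltransferase that copies methylation after replication, was one of the list, at 139, 151, 160, 190 and 164 CPM in progenitors and 89.4, 88.9, 106, 108 and 109 CPM in monocytes. In monocytes the median of the list was 0.09.

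The neutrophil lineage gave few calls. In immature neutrophils, the 1169 Ltf- and Ly6g-marked cells, 5 of 3503 genes passed (0.143%). Thbs1, the matrix protein thrombospondin-1, fell from 85.5, 75.2 and 61.9 CPM in the compared samples to 16.8 in HRO.5 and 17.4 in HRO.6, a log2 fold change of -2.12 ± 0.315 (SE) with an adjusted p of 6.48e-05. Ifitm2, a neighbour and paralog of Ifitm1, rose from 310, 258 and 225 CPM to 459 and 528 CPM (log2 fold change 0.91 ± 0.156 SE, adjusted p = 0.000745). For both genes the groups did not overlap, and their calls were lost in 5 and 4 of 11 alternatives. Mgst2, a glutathione transferase, passed with overlap at 190, 91.2, 257, 183 and 221 CPM (adjusted p = 0.046), and C130026I21Rik passed through HRO.6, at 22.4, 113, 17.8, 10.7 and 17.4 CPM. The last call was Trim12a, at 5.60, 0, 25.8, 25.1 and 25.2 CPM. Without HRO.6 no gene passed, without WTY.3 the count was 1, and without HRO.5 or HRY.4 it was 20 or 12.

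In mature neutrophils, 1795 cells, Trim12a alone passed among 3034 genes (0.033%), at 0, 1.87, 28.0, 51.4 and 61.9 CPM. The call was lost in 5 of 10 alternatives, among them without HRO.6, WTO.3 or HRY.4. The count was 0 without HRY.4, 14 without HRO.5 and 4 without WTY.3. Wfdc17, a small secreted protein of activated phagocytes, stood at 681, 2727, 526, 279 and 255 CPM, so that HRO.6 stood far above all the others, and it missed the threshold (adjusted p = 0.0682). The receptor of granulocyte colony-stimulating factor, Csf3r, stood at 442, 448, 342, 321 and 353 CPM (adjusted p = 0.97). It was 1 of 5 receptor genes that were higher without overlap among the 14 tested of 22, against 10.9% of all genes higher and 8.6% lower, with a median of 0.15 and no call. Il1b, the inflammatory cytokine, stood at 132, 158, 111, 47.1 and 66.5 CPM (adjusted p = 0.91). The secondary granule list had a median of 0.03 with no call among 17 genes tested. Neutrophil precursors were named on a tie of 7 markers with immature neutrophils, settled by the leading genes of the cluster. At finer clustering 60.5% of them lay in an unnamed cluster and 27.1% in one named immature neutrophil. The precursor class gave 1 call among 6917 genes (0.0145%), Trim12a. This gene had no count in the chronic samples and 9.48, 15.6 and 18.6 CPM in the others, at least 10.7-fold lower. That call was lost in 5 of 11 alternatives, among them without HRO.6, WTO.3 or HRY.4, and the count was 9 without HRO.5, 2 without HRO.6 or HRY.4, and 0 without WTO.3.

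In granulocyte-monocyte progenitors, the 592 cells with Mpo, Elane and Ctsg, 3 of 8625 genes passed (0.0348%). Apoe, a lipid-carrying apolipoprotein that macrophages make, rose from 26.4, 34.0 and 32.4 CPM to 90.0 in HRO.5 and 68.4 in HRO.6. The log2 fold change was 1.31 ± 0.199 (SE) with an adjusted p of 0.0133, and the call was lost in 4 of 11 alternatives. Gm47283, annotated on the Y chromosome at 90784738 to 90816464 with copies elsewhere, fell to 19.8 and 17.0 CPM from 42.7, 51.0 and 57.3 CPM. It was also counted in HRO.5 and WTY.3, which had nearly no Ddx3y, so its level is no measure of the Y chromosome here. Gm15987, annotated as antisense on chromosome 6, rose from 5.45, 6.79 and 3.79 CPM to 18 and 22 CPM; the counting strand is not given in the sources used here. Leaving out either chronic sample left no call in this class, and leaving out HRY.4 left 1.

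Erythroid cells, 508 in all, also gave 3 calls, among 7238 genes (0.0414%), and all 3 were higher. Apoe stood at 169, 208, 61.5, 91.4 and 61.3 CPM (log2 fold change 1.53 ± 0.19 SE, adjusted p = 0.00132). Plac8, a small protein of myeloid and progenitor cells, stood at 687, 807, 365, 418 and 348 CPM (1.01 ± 0.148 SE, adjusted p = 0.00657). Ctsg, cathepsin G, a protease of the primary granules of neutrophil precursors, stood at 269, 251, 91.3, 7.03 and 70.8 CPM (1.94 ± 0.293 SE). For each of the 3 the chronic samples were above every compared one. The calls of Ctsg, Plac8 and Apoe were lost in 4, 3 and 1 of 11 alternatives. Ctsg was not alone in its list: of 10 primary granule genes 8 were tested and 4 were higher without overlap, against 9.56% of all genes, with a median log2 fold change of 1.28. Mpo, the peroxidase of these granules, stood at 529, 335, 188, 49.2 and 189 CPM (adjusted p = 0.0649) and the elastase Elane at 933, 640, 307, 63.3 and 421 CPM (adjusted p = 0.26), so WTO.3 was far the lowest.

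These granule genes belong to neutrophil precursors, and their levels in granulocyte-monocyte progenitors were far higher: Ctsg stood at 2477 to 2926 CPM there in all 5 samples. The erythroid and heme list gave no call among 20 genes tested, with a median of -0.09. The globin-led finer cluster held 71.0%, 62.2%, 58.6%, 64.3% and 46.5% of the erythroid cells, with overlap between the groups. When each cell was gated on its own markers the primary granule median dropped to 0.10 and 1 gene was called. That gate has Mpo, Elane, Ctsg and Prtn3 among its progenitor markers, so it draws cells with these transcripts out of the erythroid class. The drop is thus partly built in, and the source of these transcripts in erythroid cells was not tested. S phase genes were lower without overlap in 11 of 20, against 10.4% of all genes, with a median of -0.25 and no call. The number of calls was 0 without HRY.4, 17 without HRO.5, 9 without HRO.6 and 14 without WTO.3.

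Mature B cells, 983 in all, had the highest share of calls, 13 of 2980 genes (0.436%), with 10 higher and 3 lower. The count was 4 without WTO.3, 29 without HRO.5 and 28 without HRY.4. Gdpd3 stood at 277, 333, 97.7, 76.6 and 25.7 CPM, with a log2 fold change of 2.45 ± 0.293 (SE) and an adjusted p of 2.56e-07, and kept its call under all 11 alternatives. It lies on the plus strand of chromosome 7 at 126766334 to 126775649. C130026I21Rik stood at 105, 128, 6.98, 6.96 and 8.56 CPM (3.95 ± 0.511 SE, adjusted p = 1.06e-06), and AC168977.1, a transcript whose position is not given here, at 143, 96.5, 0, 0 and 12.8 CPM.

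The other higher calls include proteins with known roles in B cells and in membranes. Zbtb20, a zinc finger factor of B and plasma cells, stood at 291, 545, 223, 111 and 158 CPM (log2 fold change 1.5 ± 0.261 SE, adjusted p = 0.000422). Ly6a, the surface protein Sca-1, stood at 702, 648, 454, 202 and 231 CPM (1.31 ± 0.242 SE, adjusted p = 0.000821). Lgals1, the lectin galectin-1, stood at 415, 299, 195, 181 and 128 CPM. In each of these the chronic samples were above all 3 compared ones, with WTY.3 the nearest. Apoe (435, 738, 398, 181 and 325 CPM, adjusted p = 0.025), Gimap4, a lymphocyte GTPase (182, 218, 126, 48.7 and 116 CPM, adjusted p = 0.044), Ctsh, the protease cathepsin H (adjusted p = 0.044), and Gm15987 (adjusted p = 0.0223) made up the rest. Zbtb20 and Lgals1 lost their calls in 5 of 11 alternatives, Ly6a in 3, Gimap4 in 6 and Gm15987 in 7 of 10, and all of these but Lgals1 and Ly6a did so without HRO.6.

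Vpreb3, which assembles with the immature B cell receptor, fell to 774 and 371 CPM from 1598, 2075 and 946 CPM (log2 fold change -1.34 ± 0.242 SE, adjusted p = 0.000714). This call was lost in 6 of 11 alternatives, among them without WTO.3, WTY.3 or HRO.6. The other lower calls were Trim5, with no count in the chronic samples against 69.8, 55.7 and 107 CPM, at least 14.6-fold lower, and Trim34a, at 4.78, 3.11, 41.9, 76.6 and 59.9 CPM (adjusted p = 0.014). Of the B lineage list Vpreb3 was the sole call, among 19 of 26 tested; 6 were lower without overlap, against 16.5% of all genes, and the median was -0.25. Bach2, a factor that holds B cells back from plasma cell fate, was one of the 6, at 167, 131, 272, 383 and 265 CPM (adjusted p = 0.0668). The MHC class II list, which presents antigen to T cells, had the opposite sign: of 11 tested none passed, 6 were higher without overlap, against 6.98% of all genes, and the median was 0.60 against 0.01 over all genes. H2-Aa stood at 2211, 2750, 1758, 1149 and 1944 CPM and H2-Eb1 at 1781, 2292, 1465, 975 and 1537 CPM, both with an adjusted p of 0.0766. Cd74, their chaperone, was the closest of the 6, at 8261, 10140, 7969, 7087 and 7997 CPM.

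The mature B class held 2 finer clusters in different proportions. The one led by Ighd and Fcer2a, a marker of follicular B cells, held 67.7%, 88.8%, 53.3%, 54.5% and 79.1% of the class, and the one led by Ms4a1, Spib and Cd72 held 31.6%, 10.8%, 46.7%, 45.5% and 20.5%. HRY.4 lay between the chronic samples. The part of this proportion in the values above was not tested.

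**Figure D3:**
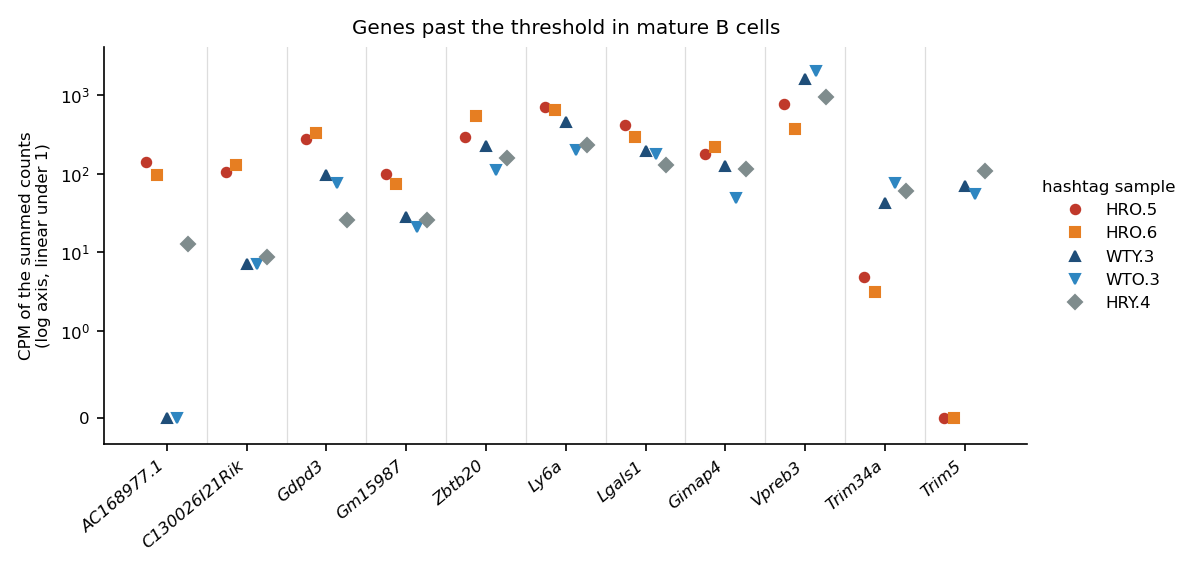
Levels (CPM of the summed counts, on a log axis that is linear under 1) of the 8 higher calls with the largest fold and of the 3 lower calls in mature B cells, with 1 point for each of the 5 samples. Gdpd3 lies at 277 and 333 CPM in HRO.5 and HRO.6 and at 25.7 to 97.7 CPM in the others, and Vpreb3 at 774 and 371 against 946 to 2075 CPM.

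The plasma cells that were more frequent in the chronic samples carried mostly IgM. Ighm, the heavy chain of IgM, made up 70.3% and 88.3% of heavy-chain UMIs in HRO.5 and HRO.6, and 46.7%, 88.8% and 40.4% in WTY.3, WTO.3 and HRY.4. Igha, that of IgA, made up 12.2% and 6.38%, against 22.9%, 5.07% and 43.2%, and Ighg3 made up 30.1% in WTY.3 and 2.65% or less in the other 4. The groups overlapped for Ighm and Igha, and with 6 to 62 cells a sample a few plasma cells can set such a share, so no test was made.

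In the T and NK class, 552 cells, none of 2379 genes passed in edgeR (0%), 120 had an unadjusted p under 0.05, and DESeq2 called 0. Without HRO.6 the count was 7. NK cells made up 16.8%, 28.0%, 44.7%, 28.8% and 38.4% of the class at finer clustering, with HRO.6 close to WTO.3. Of all kept cells, the NK cluster took 2.0%, 1.41%, 1.39%, 1.54% and 1.68%, with overlap between the groups. The T cell cluster took 9.9%, 3.61%, 1.72%, 3.81% and 2.74%, so the lower NK share of the class in HRO.5 goes with more T cells. Klrb1c, an NK receptor, stood at 43.3, 70.6, 139, 116.5 and 191.7 CPM, without overlap (adjusted p = 0.94). Gzma, a granule protease, stood at 27.1, 247, 1066, 531 and 162 CPM, with overlap. Ccl5, a chemokine of effector T cells, stood at 4452, 3827, 3204, 2784 and 2935 CPM, and Maf and Izumo1r, genes of regulatory and helper T cells, had log2 fold changes of 1.68 and 1.61 with an adjusted p of 0.94. The T and NK effector list had no call among 12 of 22 tested and a median of -0.07.

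None of 2591 genes passed in the C1qa and Ace mixture (0%), where 100 had an unadjusted p under 0.05 in edgeR and DESeq2 called 1. Apoe stood at 2891, 3360, 1467, 1612 and 1987 CPM (adjusted p = 0.128). Hmox1, which breaks down heme, stood at 73.0, 62.4, 144, 336 and 405 CPM (adjusted p = 0.134), and Hpgd, which degrades prostaglandins, at 0, 7.48, 69.4, 186 and 101 CPM (adjusted p = 0.128). For these 3 genes the groups did not overlap. The number of calls was 12 without HRO.5, 7 without HRO.6, 4 without WTO.3 and 1 without WTY.3. Immunoglobulin RNA was highest in this class in HRO.6: Igkc stood at 1081, 29150, 966, 951 and 3799 CPM and Ighm at 652, 8109, 464, 649 and 598 CPM, while Igkc in monocytes lay between 738 and 798 CPM in all 5 samples.

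Plasmacytoid dendritic cells and pro-B and pre-B cells gave no call in edgeR, among 3473 (0%) and 3916 (0%) genes. An unadjusted p under 0.05 was found for 89 and 146 of them, and DESeq2 called 0 in each. Leaving out HRO.5 gave 10 and 8 calls and leaving out HRO.6 gave 10 and 2, and without WTY.3 there was 1 in the dendritic cells. Ccl9 stood at 241, 297, 106, 109 and 137 CPM in the dendritic cells (adjusted p = 0.18), more than in any compared sample. In pro-B and pre-B cells the B lineage list had a median of -0.00 over 24 genes tested, with Rag1, which cuts receptor genes, at 335, 269, 276, 384 and 276 CPM.

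Some of the called genes went the same way in many classes, and others did not. Over the 11 fitted classes there were 38 calls of 28 genes, in 7 classes, and 8 of the calls were Trim genes. The classes share their 5 samples, so they are not independent of each other. Gdpd3 was tested in 11 classes, had a fold above 0 in all 11, was higher without overlap in 10 and was called in 2, with log2 fold changes from 0.28 to 2.45. Apoe was tested in 10, had a fold above 0 in all 10, was higher without overlap in 6 and was called in 3, from 0.03 to 1.81. Trim12a was tested in 6, had a fold below 0 and no overlap in all 6, and was called in 4. Of all genes, 6.98% (mature B cells) to 10.9% (mature neutrophils) were higher without overlap in the classes where this was counted. From 7.26% (progenitors) to 16.5% (mature B cells) were lower. These genes were picked from those called. Other called genes went both ways: Lgals1 had 5 folds above 0 and 6 below, and Zbtb20 had 4 and 4.

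**Figure D4:**
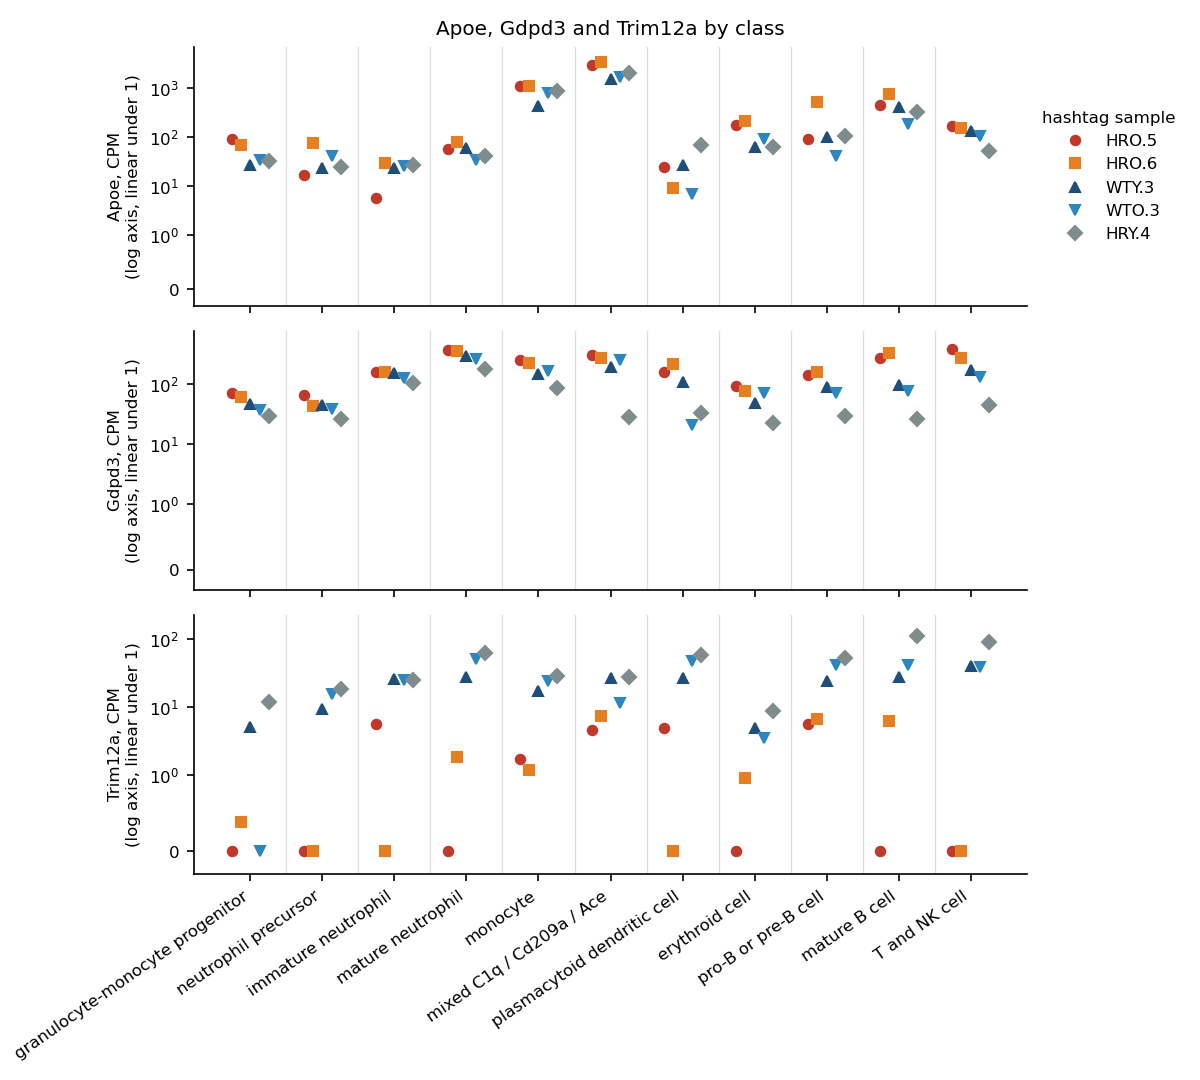
Levels (CPM on a log axis that is linear under 1, y axis) of Apoe, Gdpd3 and Trim12a, one panel each, in the 11 fitted classes (x axis), with 1 point for each of the 5 hashtag samples and classes too shallow for a test included. Gdpd3 is higher without overlap in 10 classes, while Trim12a was tested in 6 and lower without overlap in all 6. The genes were picked from those called, and the shares of all genes without overlap stand in the text above.

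Trim12a, Trim5, Trim34a and Trim30d are neighbours in a stretch of tripartite-motif genes on chromosome 7 (mm10, GENCODE M21), a family of ubiquitin ligases known for restricting retroviruses. Trim34a lies at 104244457 to 104262234 on the plus strand, and Trim5 at 104263386 to 104288094, Trim12a at 104299894 to 104315466 and Trim30d at 104470014 to 104507849 on the minus strand. Over all kept cells Trim12a stood at 2.33, 1.11, 15.9, 24.4 and 28.0 CPM. Trim5 stood at 0.258, 0.148, 6.5, 11 and 17.7 CPM, which is 1, 2, 77, 32 and 152 UMIs. Both chronic samples were thus near 0, and the pooled level of the compared samples was 15.5 times that of the chronic ones for Trim12a (95% interval 10.3 to 24.4) and 64.8 times for Trim5 (21.9 to 316). These intervals cover counting error only.

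Trim34a and Trim30d differed in the same direction, at ratios of 7.75 (4.89 to 13) and 8.7 (5.37 to 15.0). The 4 genes that lie between Trim12a and Trim30d did not show such a difference. Trim12c, whose start is 38.9 kb from that of Trim12a, stood at 57.1, 54.3, 57.1, 63.1 and 43.2 CPM, a ratio of 0.96 (0.882 to 1.05). Trim30a stood at 62.0, 67.8, 74.7, 86.8 and 58.8 CPM, a ratio of 1.06 (0.98 to 1.14). Trim30b differed less, at 5.43, 9.46, 12.7, 11.3 and 11.8 CPM and a ratio of 1.43 (1.17 to 1.75). Trim30c, with few counts, stood at 2.84, 2.59, 2.36, 2.4 and 1.17 CPM, higher in both chronic samples. Trim6, the next counted gene beyond Trim34a, stood at 0.258, 0.591, 0.759, 1.03 and 1.28 CPM. It was lower in both chronic samples, but on only 1, 8, 9, 3 and 11 UMIs. The stretch is thus not uniformly low: Trim34a, Trim5 and Trim12a lie side by side, and 4 genes that are not near 0 lie between them and Trim30d.

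The promoters of Trim12a and Trim12c are shown because genes so alike in sequence differed so much in ratio. They are from RefSeq (GRCm38.p6), on the gene's own strand, and capitals mark bases that differ between them over the 260 bases that align. An inserted base of Trim12c within this stretch, which has no partner in Trim12a, is also a capital.
Trim12a, chr7:104315446-104315745, minus strand: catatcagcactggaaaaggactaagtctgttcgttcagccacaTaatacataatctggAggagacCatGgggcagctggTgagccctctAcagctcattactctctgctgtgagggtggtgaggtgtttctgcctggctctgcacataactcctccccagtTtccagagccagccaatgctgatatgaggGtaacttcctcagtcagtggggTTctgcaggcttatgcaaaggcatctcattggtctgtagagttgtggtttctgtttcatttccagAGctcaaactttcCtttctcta
Trim12c, chr7:104353300-104353599, minus strand: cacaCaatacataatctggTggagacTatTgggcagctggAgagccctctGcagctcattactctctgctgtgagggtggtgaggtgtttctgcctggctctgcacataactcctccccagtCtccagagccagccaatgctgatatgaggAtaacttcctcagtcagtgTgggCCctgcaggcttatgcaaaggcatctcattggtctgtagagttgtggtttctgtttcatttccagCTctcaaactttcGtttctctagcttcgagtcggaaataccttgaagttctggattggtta
Of the 260 aligned bases 247 (95%) were identical. Trim12a and Trim5 were identical over all 241 bases that align. The transcripts that the reads come from were not compared here, and how the counting treated reads that match several copies is not given, so the level of each copy is uncertain. The labels give no strain, and the cause of these differences was not tested.

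**Figure D5:**
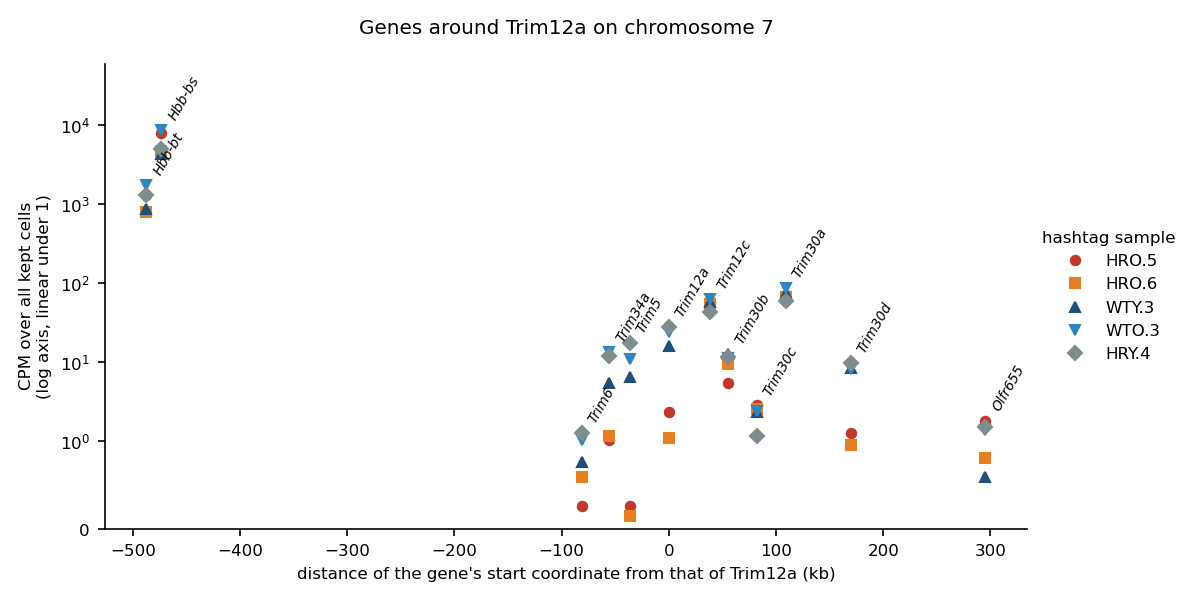
Level (CPM over all kept cells, on a log axis that is linear under 1) of the genes around Trim12a with at least 20 counts in all, by the distance of each start coordinate from that of Trim12a (kb, x axis), with 1 point for each of the 5 samples. Trim34a, Trim5, Trim12a and Trim30d lie far lower in both chronic samples, whereas Trim12c at 38.9 kb and Trim30a at 109 kb lie at the level of the others; the beta globins Hbb-bt and Hbb-bs stand at the far left.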

How the data were processed

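The deposited gene and hashtag tables hold raw whole-number UMI counts per cell barcode, with no normalisation. Per the file headers, Cell Ranger 3.0.0 wrote the gene matrix. The submitters' processing notes also name Seurat, bcl2fastq and the genome build mm10. The annotation, strand setting and barcode filter behind the counts are not stated in the labels or headers.

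Hashtags were assigned with HTODemux of Seurat 5.3.0 (centred log-ratio over cells for each hashtag, quantile 0.99) and singlets were kept. Cells with at least 300 genes and under 10% mitochondrial UMIs were clustered in Python 3.11.15 with scanpy 1.11.5 (2000 variable genes, 30 components, 20 neighbours, Leiden resolution 1) and clusters were named from fixed markers. Scrublet scores served as an alternative doublet filter only. Shares were compared by the exact two-sided permutation test over 10 splits. For the 11 classes with at least 20 cells in each of the 5 samples, UMIs were summed per sample and class and fitted with edgeR 4.0.16 in R 4.3.3 (TMM, filterByExpr, quasi-likelihood test, Benjamini-Hochberg adjustment, threshold 0.05), and with DESeq2 1.42.0 as an alternative. The fit was tested on simulated data.

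The text names the 8 genes of largest rise and of largest fall among those called in a class at a mean of 20 CPM or more; where fewer passed, genes of smallest p with a log2 fold change of at least 1 in size and no overlap; up to 4 list members; Tet2; and sex-linked genes. Called genes under 20 CPM, the Trim neighbours and the plasma cell immunoglobulins were named after their values were seen. The samples, markers and lists were chosen with earlier results of these data known. Intervals are exact 95% binomial or Poisson-based ones and cover counting error only. Gene positions are from GENCODE M21 and promoters from RefSeq. Of the genes called in monocytes, 1 is not reported here.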

Additional observations from a re-analysis of the deposited data

How the results depend on the processing

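No checked call reversed its direction. Of the 38 calls, all but those of Apoe and Ctsh in mature B cells were checked under several alternatives. Under the alternatives other than leaving out a sample, 143 of 210 checks kept the call. When 1 sample was left out, 105 of 169 did. Where a chronic sample is left out, 1 remains and is assumed to vary like the others. No paired analysis was possible because the hashtag numbers only name samples and the chronic group shares none of them with the compared groups. Depth limits the small classes: plasma cells rest on as few as 6 cells a sample and stromal cells on 0 to 4.

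Under the within-cell hashtag form, the 500-gene filter and the 5% mitochondrial filter, cells were clustered and named anew. A class name can thus cover other cells. In the within-cell form a neutrophil cluster of 955 cells stayed unnamed. With at least 500 genes, a cluster of 414 cells nearest to progenitors stayed unnamed. A cluster of 1031 cells led by Mmp8 and Mmp9, which lead mature neutrophils in the main form, was then named immature neutrophil. Differences in share, in percentage points, moved as follows. With hashtag counts normalised within each cell they were 5.31 for T and NK cells, 1.43 for the C1qa and Ace mixture, 0.844 for mature neutrophils, 1.25 for plasma cells and -0.0788 for plasmacytoid dendritic cells. With each cell gated alone they were 2.11 for T cells without NK cells and 0.436 for macrophages, which are not the same set of cells as the mixture. With at least 500 genes they were 1.58 for T and NK cells, -0.402 for progenitors, -6.22 for immature neutrophils and 2.08 for plasma cells. Under 5% mitochondrial UMIs they were -0.112 for progenitors, -1.85 for mature B cells, 5.47 for monocytes and -0.395 for dendritic cells. For progenitors the Scrublet filter gave -0.0327 and resolution 0.5 gave -0.0682. Leaving out 1 sample gave 0.734 to 7.61 for T and NK cells, -0.779 to -0.369 for basophils, -0.667 to 0.178 for erythroid cells, -1.22 to 1.01 for progenitors, -4.88 to 0.0326 for immature neutrophils, 1.41 to 3.82 for the mixture, -3.21 to 2.76 for mature B cells, -5.43 to 2.63 for mature neutrophils, -1.26 to 7.33 for monocytes, -3.45 to -0.864 for neutrophil precursors, 1.46 to 1.82 for plasma cells, -1.3 to 1.96 for dendritic cells, -9.21 to -2.44 for pro-B and pre-B cells, -0.133 to -0.0375 for stromal cells and 0.624 to 1.01 for the unnamed cluster.

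Counts of called genes were higher in all 11 classes without the low-count filter, where more genes are tested: 14 in T and NK cells, 18 in erythroid cells, 17 in progenitors, 11 in immature neutrophils, 12 in the mixture, 28 in mature B cells, 18 in mature neutrophils, 41 in monocytes, 9 in neutrophil precursors, 9 in dendritic cells and 7 in pro-B and pre-B cells. DESeq2 called 0 in progenitors, immature and mature neutrophils and neutrophil precursors, 1 in the mixture, 1 in mature B cells and 5 in monocytes. With each cell gated alone the counts were 5 in T cells without NK cells, 1 in erythroid cells, 15 in progenitors and 1 in immature neutrophils. They were also 1 in mature B cells, 5 in neutrophil precursors and 4 in dendritic cells. With hashtag counts normalised within each cell, classes were named anew. The counts were then 31 in erythroid cells, 3 in immature neutrophils, 5 in mature B cells, 7 in monocytes and 6 in neutrophil precursors. With Ddx3y status as a term they were 11 in immature neutrophils, 37 in mature B cells and 4 in mature neutrophils, and the Scrublet filter gave 7 in erythroid and 29 in mature B cells. Leaving out 1 sample gave 0 to 7 in T and NK cells, 0 to 17 in erythroid cells, 0 to 3 in progenitors, 0 to 20 in immature neutrophils, 0 to 12 in the mixture, 4 to 29 in mature B cells, 0 to 14 in mature neutrophils, 5 to 13 in monocytes, 0 to 9 in neutrophil precursors, 0 to 10 in dendritic cells and 0 to 8 in pro-B and pre-B cells. Beyond the tests' own construction the cause was not tested.

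List medians (log2) moved in monocytes for cytokines, to -0.0209 with Ddx3y status, 0.147 gated and -0.0384 with the within-cell form. DNA methylation there moved to -0.054 under DESeq2, 0.118 with Ddx3y status, -0.0403 gated, 0.0561 with the within-cell form and -0.0539 with no filter. Gated cells gave -0.165 for secondary granules in mature neutrophils and 0.103 for primary granules in erythroid cells. The T and NK effector median was 0.0964 under DESeq2, 0.541 gated, 0.288 with no filter and 0.049 with the Scrublet filter. Leaving out 1 sample gave, in monocytes, -0.0383 to 0.108 for DNA methylation, -0.00877 to 0.418 for MHC class I, -0.0841 to 0.607 for acute-phase genes, -0.0315 to 0.0933 for cytokines, -0.245 to -0.0872 for S phase and -0.221 to 0.0808 for type I interferon. In mature B cells it gave -0.361 to -0.125 for B lineage and 0.385 to 0.644 for MHC class II, in progenitors -0.289 to -0.14 for DNA methylation, in T and NK cells -0.164 to 0.0934 for effectors, in mature neutrophils 0.0368 to 0.32 for cytokine receptors and -0.0795 to 0.106 for secondary granules, and in erythroid cells -0.237 to 0.102 for heme and 1.09 to 1.38 for primary granules.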
